A study of Daphnia magna with 3 samples.

Results

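Head and carapace of Daphnia magna were compared. This crustacean is a water flea of lakes and ponds, and the carapace is the shell that covers most of the animal behind the head. The comparison used the 3 head libraries and the 3 carapace libraries of replicates 3, 4 and 7, which are 6 of the 21 libraries of an atlas of 7 body parts. All 6 were used as labelled. The head and the carcass of replicate 3 departed from the other libraries of their label, as given below. A difference in the tissue taken, in the barcode or in the animals cannot be told apart there. The numbers of head against carapace calls are therefore given with and without them, and the carcass set with and without the carcass of replicate 3. Comparisons between other pairs of body parts are given with all libraries only. Animals of every group carried the genotype IL-M1-8, had no treatment beyond standard keeping, and were grown at 20 °C, each adult in 20 mL of ADaM medium, with a daily feed of green algae at 100000 cells per mL. Each replicate was 1 pool in which barcodes marked the 7 body parts (hemocytes, eggs, gut, antenna, head, carapace and carcass), sequenced as ligation-prepared cDNA by Oxford Nanopore. The labels give neither the age of the animals nor how many went into a pool. It is also not stated that a pool was dissected from 1 set of animals or that the pools were separate cultures. The p-values therefore reflect only the spread among the libraries, which may be technical.

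The head of a water flea carries the single compound eye, the brain with its optic ganglia, the small sensory antennules and the front of the gut with its paired digestive caeca. The carapace is a folded sheet of epidermis under chitinous cuticle that wraps the trunk, forms the brood chamber and carries hemolymph between its inner and outer walls, where gas exchange takes place. It is shed and rebuilt at each molt. Head and carapace therefore share epidermis, cuticle and hemolymph, while nervous tissue, eye and digestive caeca belong to the head. The deposited transcripts are predicted models named by contig and gene finder, and 0 of the 33957 were found in RefSeq's gene table (assembly ASM2063170v1.1). No model is therefore given a name or function, and the labelled body parts could not be checked against marker genes.

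The head libraries held 123235, 249289 and 173392 reads in replicates 3, 4 and 7, and the carapace libraries 124318, 237842 and 106131 reads. Of the 33957 transcripts, 14917 had a read in the 6 libraries and 4035 passed the filter on low counts. Levels are CPM, that is read counts relative to the depth of the library, after scaling with TMM factors, and a difference is head minus carapace on the log2 scale. A head library had 8346 ± 1154 transcripts with a read and a carapace library 8784 ± 2226 (SD, n = 3 each; exact permutation test, two-sided p = 0.9, with 0.1 the smallest p that 3 against 3 allows). At the depth of the shallowest of the 6 libraries, 106131 reads, the heads had 9078.1, 4952.1 and 6931.6 transcripts in replicates 3, 4 and 7, and the carapaces 7739, 8960.6 and 6935. The head of replicate 3 had more than any carapace, and the head of replicate 4 fewer than any.

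The head libraries differed among themselves more than the carapace libraries did. Across the 4035 tested transcripts, the heads of replicates 4 and 7 had a Spearman correlation of 0.73, while the head of replicate 3 had 0.53 with that of replicate 4 and 0.42 with that of replicate 7. The head of replicate 3 was closest to the hemocytes of replicate 4, at 0.73, and its correlations with the carapaces of replicates 3, 4 and 7 were 0.52, 0.67 and 0.40. The carapaces correlated with each other at 0.72 to 0.78. The head of replicate 3 stood more than 2 log2 units above both other heads in 224 transcripts and more than 2 below both in 167. For the carapaces, the largest of these counts were 84 above, in replicate 4, and 153 below, in replicate 7. These correlations are across transcripts, which are not independent replicates, and describe the libraries.

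The heads of replicates 4 and 7 were dominated by a small set of transcripts. The 10 most counted transcripts took 18.9%, 73.1% and 52.7% of the reads in the heads of replicates 3, 4 and 7, and 31.9%, 20.9% and 36.4% in the carapaces. The means were 48.2% ± 27.4 in head and 29.7% ± 7.97 in carapace (SD, n = 3 each; exact permutation test, two-sided p = 0.4). With models of nearly the same counts counted once, the shares were 17%, 58.8% and 38.2% in the heads and 27.2%, 20.2% and 33.2% in the carapaces. The lists of 10 of the heads of replicates 4 and 7 shared 9 transcripts. The list of the head of replicate 3 shared 1 of these 10 with the head of replicate 4 and 2 with that of replicate 7, but 7, 7 and 6 with the carapaces of replicates 3, 4 and 7.

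The most counted transcript of the head of replicate 4, a model of 1986 bases, had 319, 65348 and 15393 reads in the heads of replicates 3, 4 and 7 and 156, 52 and 7 reads in the carapaces. The head counts of replicates 4 and 7 stood far above all carapace counts, and that of replicate 3 was of the size of the highest carapace count. Its log2 fold change was 9.29 ± 2.53 (SE), with an adjusted p of 0.0633 (edgeR), short of the threshold of 0.05. The second transcript, of 1186 bases, had 83, 32938 and 8452 reads in head and 66, 19 and 0 in carapace, with an adjusted p of 0.0785 (edgeR). The next, of 1203 bases, had 79, 26920 and 21241 reads in head and 64, 15 and 8 in carapace, with an adjusted p of 0.0577 (edgeR). A model of 1417 bases on the same contig had almost the same counts, so reads shared between the 2 models cannot be told apart. Without the head of replicate 3, all 3 leading transcripts had adjusted p-values under the threshold, 0.0262, 0.0305 and 0.0166 (edgeR), with log2 fold changes of 9.87, 10.24 and 10.26. That head was left out because it was known to depart, and it was low in these transcripts, so the lower p-values are no separate test. The same transcripts were also high in the carcass of replicate 3, where the model of 1986 bases had 12663 reads, against 34 and 50 in the carcasses of replicates 4 and 7.

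**Figure D1:**
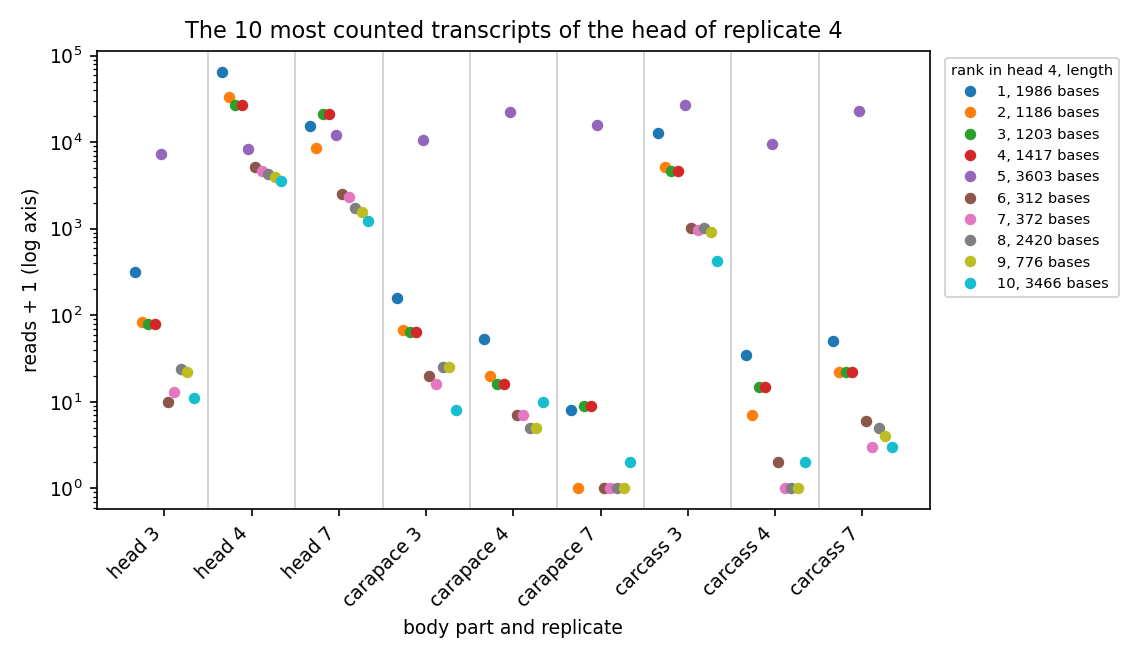
Reads plus 1 (log axis) of the 10 most counted transcripts of the head of replicate 4, in the head, carapace and carcass libraries (x axis, body part and replicate). One color stands for 1 transcript, and the points of a library are set side by side. Apart from the model of 3603 bases, which was high in every library shown, the transcripts were high in the heads of replicates 4 and 7 and in the carcass of replicate 3 and low elsewhere.

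One transcript was among the most counted in all 6 libraries. This model of 3603 bases had 7326, 8312 and 12131 reads in the heads of replicates 3, 4 and 7 and 10637, 22054 and 15699 reads in the carapaces. Its head and carapace levels did not differ beyond the spread between libraries (log2 fold change -0.35 ± 1.27 (SE), adjusted p = 0.995, edgeR). Of the transcripts most counted in the head of replicate 3, a model of 1645 bases had 3083, 86 and 249 reads in head and 28, 8 and 1 in carapace. It was above the carapace in every pool, but its log2 fold change of 6.11 ± 1.82 (SE) missed the threshold with an adjusted p of 0.101 (edgeR).

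The test across all 4035 transcripts asked which of them the head uses more or less than the carapace. The head was higher in 41 transcripts, 1.02% of those tested, and lower in 16, 0.397% (edgeR quasi-likelihood test, Benjamini-Hochberg adjusted p under 0.05). At an unadjusted p under 0.05, 199 were higher and 324 lower. Of the 57 calls, 71.9% were higher in head, and the split differed between settings. With RLE factors it was 38 higher and 20 lower (65.5%), and with library size alone 38 and 44 (46.3%), where the median log2 fold change of all tested transcripts was -0.35 (0.03 with TMM and 0.14 with TMMwsp factors). DESeq2, which differs in model and test as well as in scaling, gave 59 and 82 (41.8%). With the pool number as a block, which uses the pairing of head and carapace by pool, 50 were higher and 56 lower. In bulk RNA, fewer cells of a type and less RNA per cell cannot be told apart.

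The 41 higher transcripts were much more abundant in head, with a median log2 fold change of 6.30 (2.33 to 12.83). They were nearly absent from the carapace: the median was 4 reads over the 3 carapace libraries, the highest was 55, and 6 transcripts had none. Over the 3 head libraries, the same transcripts had 40 to 4821 reads, with a median of 182. They took 3.79%, 6.76% and 5.19% of the reads in the heads of replicates 3, 4 and 7 (95% Clopper-Pearson intervals 3.69 to 3.90, 6.67 to 6.86 and 5.09 to 5.30, covering counting error only). In the carapaces they took 0.105%, 0.0996% and 0.0339% (0.0874 to 0.124, 0.0874 to 0.113 and 0.0238 to 0.0470). All 41 had their highest mean level of the 7 body parts in head, which follows in part from how they were chosen. The share of all tested transcripts with head highest was not counted. Among the 5 body parts other than head and carapace, the next highest was carcass for 18 and antenna for 12. It was eggs for 5, gut for 5 and hemocytes for 1. For these body parts too, the share of all tested transcripts was not counted. The carcass means include replicate 3, where the 41 took 1.12% of the reads, against 0.0627% and 0.0708% in the carcasses of replicates 4 and 7.

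The 16 lower transcripts formed a smaller group with smaller changes, with a median log2 fold change of -3.54 (-5.30 to -2.47). They took 0.118%, 0.00963% and 0.0571% of the reads in the heads of replicates 3, 4 and 7, against 0.652%, 0.571% and 0.900% in the carapaces. Over the head libraries they had a median of 6 reads and at most 138, and over the carapace libraries 34 to 1305, with a median of 94.5. Of the 7 body parts, carapace was highest for 15 of them and antenna for 1, which also follows in part from how they were chosen. Of the 5 body parts other than head and carapace, hemocytes were highest for 9, antenna for 3, gut for 2, carcass for 1 and eggs for 1. The matching shares of all tested transcripts were not counted.

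The head replicates did not contribute equally to the higher calls. Head was above carapace in all 3 pools for 29 of the 41 transcripts and in 2 of 3 for the other 12, each time with replicate 3 as the exception. Several of the 29 had very few reads in replicate 3, such as 1 in head and 0 in carapace, and their direction there rests on those reads. The median difference of the 41 was 1.51 in replicate 3 (-2.08 to 6.05), 5.20 in replicate 4 (1.88 to 11.34) and 6.13 in replicate 7 (2.61 to 10.41). For the 16 lower transcripts the pools were alike, with medians of -3.36 in replicate 3 (-5.33 to -1.66), -3.18 in replicate 4 (-5.15 to -1.65) and -2.97 in replicate 7 (-3.75 to -1.46). All 16 were lower in every pool. Head and carapace levels did not overlap for 29 of the 41 and for all 16, and over all tested transcripts this held for 216 with head above (5.35%) and 515 with head below (12.8%). The calls came from the same 6 libraries, so these counts describe them and are no further test.

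**Figure D2:**
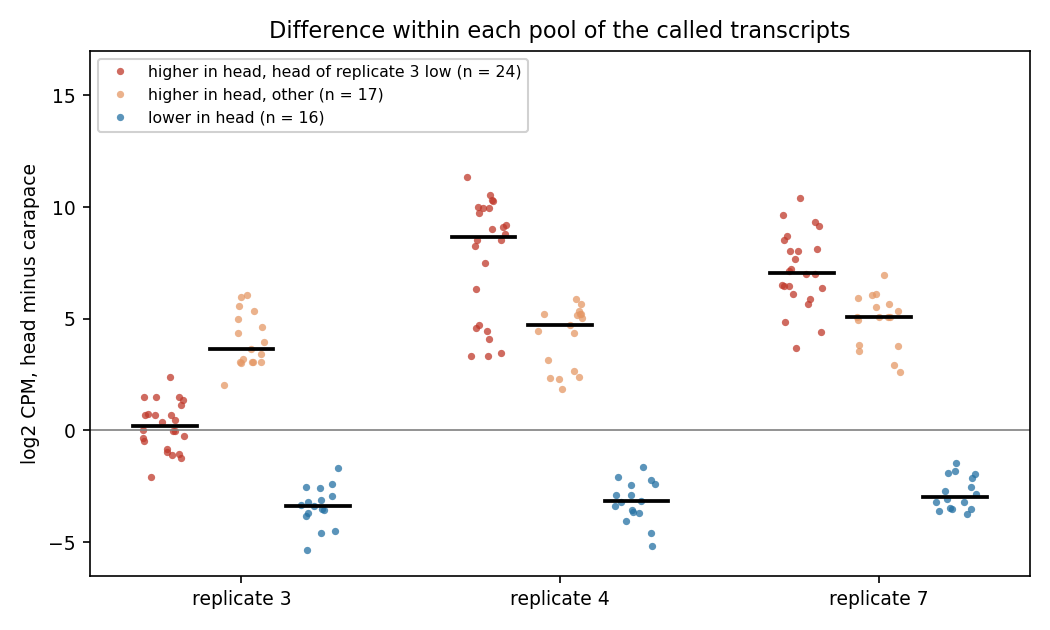
Difference of head minus carapace in log2 CPM (y axis) within each pool (x axis) for the called transcripts, 1 point per transcript with a bar at the median. The higher transcripts are split into the 24 for which the head of replicate 3 lay more than 2 log2 units below both other heads, with a replicate 3 median of 0.19, and the other 17, whose medians were 3.64, 4.72 and 5.10 in replicates 3, 4 and 7. The 16 lower transcripts lie below 0 in all pools.

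The 41 higher transcripts fell into 2 sets by the level of the head of replicate 3, a division made after the values were seen. For 24 of them the head of replicate 3 lay more than 2 log2 units below both other heads, and for 17 it did not. The 24 took 0.0868%, 6.42% and 4.37% of the reads in the heads of replicates 3, 4 and 7, against 0.0523%, 0.0467% and 0.0151% in the carapaces. Their median differences were 0.19 in replicate 3, 8.66 in replicate 4 and 7.06 in replicate 7, and 12 of the 24 were above the carapace in replicate 3. They were also counted in the carcass of replicate 3, where they took 1.07% of the reads, against 0.0249% and 0.0343% in the carcasses of replicates 4 and 7. The 17 took 3.71%, 0.339% and 0.828% of the reads in the heads of replicates 3, 4 and 7, against 0.0523%, 0.0530% and 0.0188% in the carapaces. They were above the carapace in every pool, with median differences of 3.64, 4.72 and 5.10, and took 0.0454%, 0.0378% and 0.0365% of the reads in the carcasses. With library size alone, these median differences were 4.38, 2.86 and 4.07. In the head of replicate 3, 1 transcript of 5854 bases had 3175 reads. Without it, the other 16 took 1.13%, 0.189% and 0.373% in the heads and 0.0306%, 0.0433% and 0.0141% in the carapaces.

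The highest fold changes belonged to the set that the head of replicate 3 did not share. The transcript maker-falcon_000016F-augustus-gene-2.68-mRNA-1, of 902 bases, had 1, 626 and 303 reads in the heads of replicates 3, 4 and 7 and 0 reads in each carapace. Over all heads together it was at least 424-fold higher than in carapace, counted against 3 reads over the carapace group. Its fitted log2 fold change was 12.83 ± 2.86 (SE; adjusted p = 0.0307, edgeR). In the carcasses of replicates 3, 4 and 7 it had 69, 1 and 0 reads. Its difference was 9.95 in replicate 4 and 8.55 in replicate 7, and in replicate 3 the direction rested on 1 read.

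The transcript maker-falcon_000028F-augustus-gene-4.61-mRNA-1, of 1281 bases, had 1, 658 and 225 reads in the heads and 0 in each carapace, with 102, 0 and 1 in the carcasses. Over all heads together it was at least 403-fold higher than in carapace (log2 fold change 12.78 ± 2.78 (SE), adjusted p = 0.0267, edgeR). A called model of 557 bases on another contig had nearly the same counts in all 21 libraries, so reads shared between the 2 models cannot be told apart. Both identified transcripts were the 2 largest calls without the head of replicate 3 as well, with log2 fold changes of 13.43 ± 2.28 and 13.38 ± 2.26 (SE; adjusted p = 0.00183 and 0.00173, edgeR). In 21 alternative settings, the adjusted p of the transcript of 902 bases lay between 7.03e-13 and 0.248, past the threshold in all but 7. That of 1281 bases lay between 7.03e-13 and 0.238, past it in all but 8.

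The 17 transcripts that all 3 heads shared included those with the smallest adjusted p-values. The split had set aside transcripts with a low head of replicate 3, which favors heads that agree, so this is no separate result. A transcript of 2625 bases had 76, 16 and 37 reads in the heads of replicates 3, 4 and 7 and 0 in each carapace. The heads stood at 519, 280 and 505 CPM. Over all heads together the level was at least 58.8-fold above the carapace. The fitted log2 fold change was 9.31 ± 1.19 (SE; adjusted p = 0.000653, edgeR). A transcript of 1179 bases had 101, 31 and 117 reads in head and 0, 0 and 1 in carapace, which gave 942 ± 571 CPM in head and 5.09 ± 8.82 CPM in carapace (SD, n = 3 each). Its log2 fold change was 8.05 ± 1.03 (SE; adjusted p = 0.000715, edgeR). The lowest head value of both transcripts was above their highest carapace value.

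A transcript of 1513 bases had 38, 25 and 32 reads in head and none in carapace, at least 43.3-fold higher over all heads together (adjusted p = 0.000919, edgeR). A transcript of 1977 bases had 50, 19 and 40 reads in head and 0, 1 and 0 in carapace (adjusted p = 0.000795, edgeR). For both, the 3 heads were close to each other relative to the gap to the carapace.

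The most abundant of the 17, the model of 5854 bases, had 3175, 375 and 789 reads in the heads and 27, 23 and 5 in the carapaces. Its levels were 21680, 6557 and 10760 CPM in head and 316.5, 100.9 and 76.35 CPM in carapace, and the differences in the pools were 6.05, 5.87 and 6.95. With TMM factors it was thus higher in head by a similar factor in each pool, although its head level varied more than 3-fold. As a share of all reads it took 2.58%, 0.15% and 0.455% in the heads and 0.0217%, 0.00967% and 0.00471% in the carapaces. By these shares the factor was less alike, and smallest in replicate 4. The log2 fold change was 6.30 ± 1.52 (SE), with an adjusted p of 0.0353 (edgeR).

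Several of the 17 lay together on 1 contig. The contig falcon_000026F held 5 of the higher transcripts, the most of any contig, and 4 of these had nearly the same counts in all libraries. One of the 4, of 3438 bases, had 41, 41 and 27 reads in head and 2, 2 and 0 in carapace (log2 fold change 5.29 ± 0.99 (SE), adjusted p = 0.00761, edgeR). The 4 models are 3358 to 3450 bases long, and their reads may be split or shared between near-identical copies, so they are no separate observations. When transcripts whose reads differed by at most 5% over the 21 libraries were counted once, the 41 higher transcripts came to 36 and the 16 lower ones stayed 16. The higher transcripts lay on 23 contigs and the lower ones on 9. The median length was 2623 bases for the higher, 2933.5 for the lower and 2750 for all tested transcripts. Within the higher calls, the median length was 1479 bases in the set of 24 and 3438 in the set of 17.

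The lower transcripts were low in all heads, including that of replicate 3. The largest fold change belonged to a transcript of 1356 bases on the contig falcon_000018F, which had 0, 0 and 1 reads in the heads of replicates 3, 4 and 7 and 22, 16 and 14 in the carapaces. It averaged 4.55 ± 7.87 CPM in head and 181 ± 98.2 CPM in carapace (SD, n = 3 each), with a log2 fold change of -5.30 ± 1.14 (SE; adjusted p = 0.0214, edgeR). Its differences were -4.60, -2.88 and -3.19 in the 3 pools. The transcript maker-falcon_000047F-augustus-gene-5.59-mRNA-3, of 4293 bases, had 0, 0 and 2 reads in head and 37, 30 and 9 in carapace. It averaged 9.09 ± 15.8 CPM in head and 234 ± 173 CPM in carapace (SD, n = 3 each), with a log2 fold change of -4.81 ± 1.08 (SE; adjusted p = 0.0267, edgeR). In both, the head reads came from the head of replicate 7 alone, and every carapace library was above it.

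Other lower transcripts showed the same order. A transcript of 2507 bases had 9, 1 and 12 reads in the heads and 140, 229 and 132 in the carapaces, with a log2 fold change of -4.24 ± 0.82 (SE; adjusted p = 0.0104, edgeR). The most counted one, of 3721 bases, had 83, 9 and 46 reads in head and 257, 487 and 561 in carapace, or 451 ± 256 CPM in head and 4572 ± 3487 CPM in carapace (SD, n = 3 each). Its log2 fold change of -3.33 ± 0.86 (SE) had an adjusted p of 0.0499 (edgeR), at the edge of the threshold. The transcript maker-falcon_000036F-snap-gene-0.37-mRNA-1, of 769 bases, had 3, 1 and 1 reads in head and 37, 57 and 14 in carapace, with 17.2 ± 3.43 CPM in head and 299 ± 118 CPM in carapace (SD, n = 3 each) and a log2 fold change of -4.02 ± 0.81 (SE; adjusted p = 0.0117, edgeR). A transcript of 1291 bases had 5, 0 and 1 reads in head and 22, 59 and 11 in carapace (log2 fold change -3.49 ± 0.79 (SE), adjusted p = 0.0267, edgeR). These were the 2 largest lower calls without the head of replicate 3, at -4.22 ± 1.03 for the transcript of 769 bases and -4.81 ± 1.14 for that of 1291 bases (SE; adjusted p = 0.0248 and 0.0195, edgeR), within 0.000178 to 0.16 and 0.00249 to 0.238 over 24 alternatives each. Of the 16, 4 lay on the contig falcon_000018F.

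**Figure D3:**
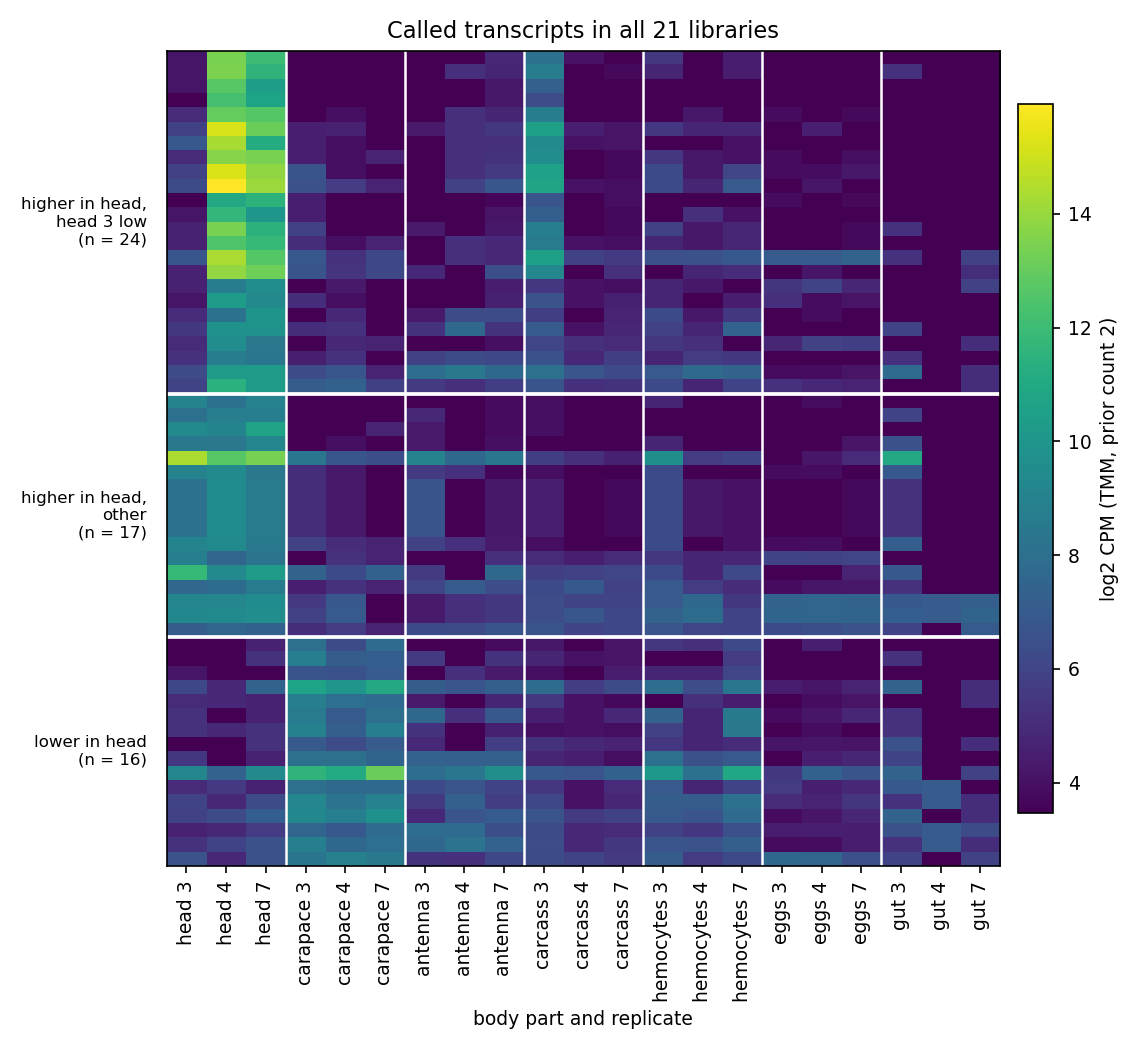
Level of the 57 called transcripts (1 line each, log2 CPM as color) in all 21 libraries (x axis, body part and replicate). The 24 upper transcripts were high in the heads of replicates 4 and 7 and raised in the carcass of replicate 3. The next 17 were high in the 3 heads, and the 16 lowest were high in the 3 carapaces. By mean level, carapace was the highest body part for 15 of these 16, and some reached carapace levels in a hemocyte library.

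Over all tested transcripts, the pools gave partly different orders. The differences of replicates 4 and 7 had a Spearman correlation of 0.35 across the 4035 transcripts, those of replicates 3 and 7 of 0.24, and those of replicates 3 and 4 of 0.08. Head was above carapace in all 3 pools for 493 transcripts (12.2%) and below in all 3 for 898 (22.3%). A difference of more than 1 log2 unit in every pool was found for 64 transcripts with head higher and 240 with head lower, 32 and 317 with library size alone. Transcripts with a moderate and repeated deficit in head were thus more numerous than those with a repeated excess under every scaling tried, although the adjusted test called more higher than lower transcripts. The median difference of all tested transcripts was 0.00, -0.22 and 0.00 in replicates 3, 4 and 7.

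**Figure D4:**
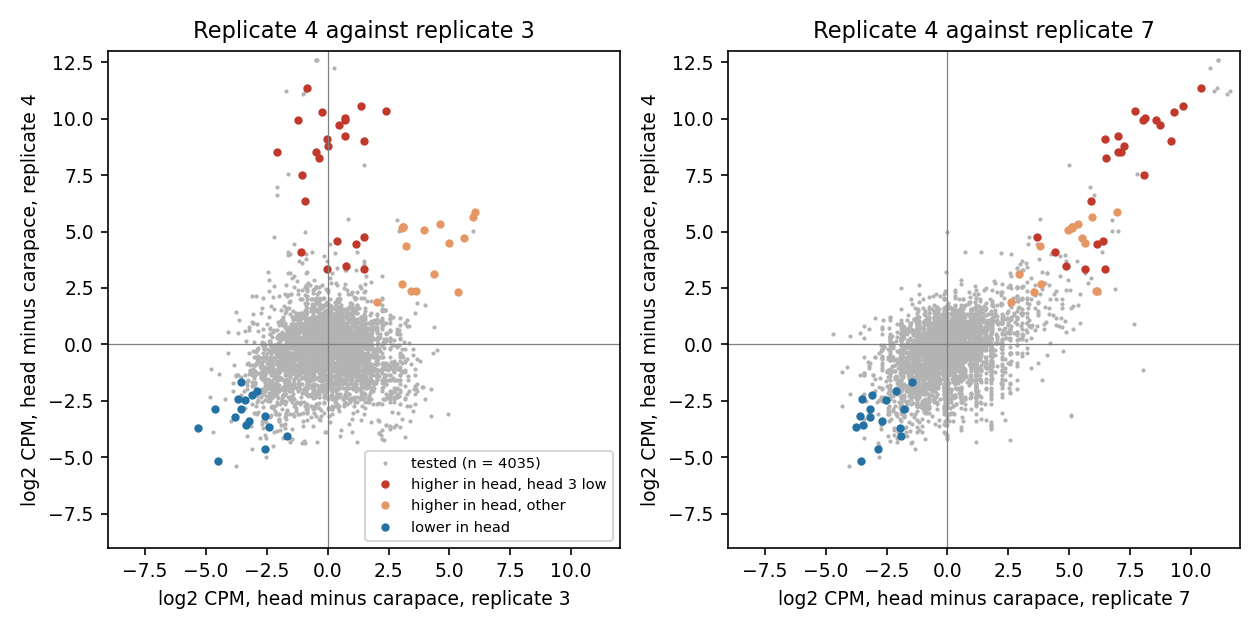
Difference of head minus carapace in log2 CPM of replicate 4 (y axes) against that of replicate 3 (left, x axis) and of replicate 7 (right, x axis), 1 point per tested transcript (n = 4035). The 24 higher transcripts with a low head of replicate 3 stand high on the y axis and near 0 in replicate 3, but near the diagonal against replicate 7. The other 17 higher and the 16 lower transcripts keep their direction on both panels.

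When the head of replicate 3 was left out, 77 transcripts were higher in head (1.91%) and 5 lower (0.124%), and 40 of the 41 higher and 5 of the 16 lower calls remained. This head was left out because it was known to differ from the other heads, so calls without it describe the remaining libraries and are no separate test. The 77 took 75.9% and 48.8% of the reads in the heads of replicates 4 and 7, against 0.265% and 0.0895% in the carapaces of those replicates. With models of nearly the same counts counted once, the shares were 61.3% and 34.2% in these heads and 0.242% and 0.082% in these carapaces. In replicate 3, whose head but not carapace was left out of that choice, they took 3.98% in the head and 0.520% in the carapace. The model of 5854 bases alone took 2.58% in that head. The median difference of the 77 there was 0.39, and 43 were higher in head, 32 lower and 2 without a read in either library. The share of all tested transcripts with head higher in replicate 3 was not counted. Every other library also moved the counts. Without the head of replicate 4 there were 14 higher and 1 lower calls, and without that of replicate 7, 27 and 9. Without the carapaces of replicates 3, 4 or 7 there were 9 and 1, 8 and 6, and 6 and 2.

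Transcripts called higher in other body parts, chosen from the 15 libraries that are neither head nor carapace, were then read in head and carapace. Each of those 5 body parts was tested against the mean of the other 4, and 3711 transcripts entered that test. The antenna set of 576 transcripts (15.5%) took 17.4%, 4.56% and 16.7% of the reads in the heads of replicates 3, 4 and 7 and 39.0%, 27.7% and 41.2% in the carapaces. The mean was 12.9% ± 7.21 in head and 35.9% ± 7.24 in carapace (SD, n = 3 each), and every head was below every carapace (exact permutation test, two-sided p = 0.1, the smallest possible). The antenna libraries themselves had 43.4% to 57.2%. The set was not particular to antenna, as the hemocyte libraries of replicates 3, 4 and 7 had 30.7%, 10.3% and 43.8%. Shares of a library add up to a whole, and a few transcripts took most reads of the head of replicate 4. Among the reads outside the 77 transcripts called higher without the head of replicate 3, the antenna set took 18%, 18.2% and 32.1% in the heads and 39.1%, 27.7% and 41.2% in the carapaces, and the groups overlapped (exact permutation test, two-sided p = 0.2).

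The hemocyte set of 177 transcripts (4.77%), of which 91 were also in the antenna set, had a smaller share in every head than in any carapace. It took 5.50%, 0.821% and 3.27% of the reads in the heads and 14.1%, 9.95% and 13.8% in the carapaces, or 3.20% ± 2.34 in head and 12.6% ± 2.30 in carapace (SD, n = 3 each; exact permutation test, two-sided p = 0.1). The hemocyte libraries had 10.4%, 3.23% and 22.4%, so the carapaces reached the level of these libraries. The set was not particular to hemocytes, as the antenna libraries of replicates 3, 4 and 7 had 9.33%, 10.4% and 7.06%. Outside the 77 transcripts, the hemocyte set took 5.70%, 2.73% and 6.07% in the heads and 14.1%, 9.96% and 13.8% in the carapaces, still without overlap (exact permutation test, two-sided p = 0.1).

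The carcass set of 129 transcripts (3.48%) took 1.39%, 72.0% and 45.7% of the reads in the heads of replicates 3, 4 and 7 and 1.46%, 1.73% and 1.13% in the carapaces (39.7% ± 35.7 in head and 1.44% ± 0.30 in carapace, SD, n = 3 each; exact permutation test, two-sided p = 0.3). This share came from 18 of the 129 transcripts, which were also higher in head without the head of replicate 3. They took 70.4% and 44.1% in the heads of replicates 4 and 7, and 12.5%, 0.598% and 0.407% in the carcasses of replicates 3, 4 and 7. The other 111 took 0.830%, 1.66% and 1.55% in the heads, against 1.07%, 1.62% and 1.09% in the carapaces. A carcass set chosen without the carcass of replicate 3 had 81 transcripts and took on average 1.19% in head and 0.820% in carapace. The high share of the carcass set in head thus rested on the carcass library of replicate 3.

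The egg set of 745 transcripts (20.1%) took 9.23%, 0.889% and 1.25% of the reads in the heads of replicates 3, 4 and 7 and 3.04%, 5.18% and 1.97% in the carapaces. The head of replicate 3 had the highest share of the 6 libraries, and the groups overlapped (3.79% ± 4.72 in head and 3.40% ± 1.64 in carapace, SD, n = 3 each; exact permutation test, two-sided p = 1). The egg libraries had 24.8% to 29.3%. The gut set held 4 transcripts (0.108%), with at most 0.0235% of the reads in any head or carapace. Of the 41 higher transcripts, 11 were among the 3711 tested in those 15 libraries, and 2 were in the antenna set, 2 in the carcass set and 3 in the egg set. Of the 16 lower ones, 10 were among the 3711, and 4 were in the antenna set, 4 in the hemocyte set and 1 in the egg set.

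**Figure D5:**
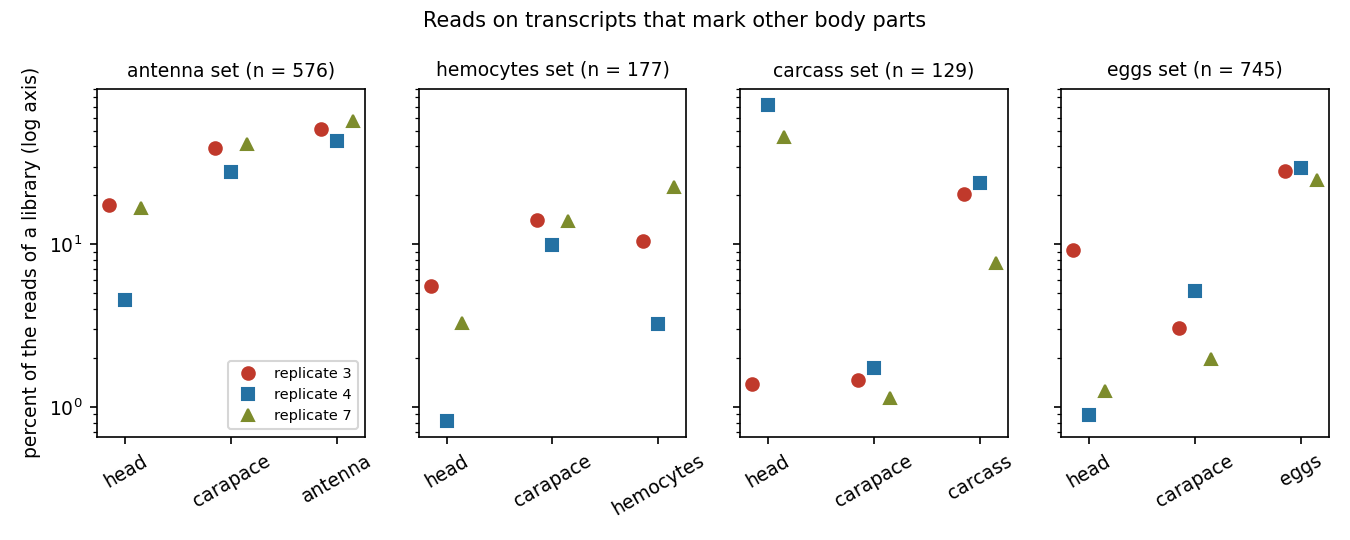
Percent of the reads of a library (log axis) on the sets of transcripts called higher in antenna, hemocytes, carcass and eggs. The x axes give head, carapace and the body part of the set, with 1 point per library and the replicate as color and shape. The antenna and hemocyte sets lie lower in every head than in any carapace, and the carcass set is high in the heads of replicates 4 and 7 alone among the 6 libraries.

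The called transcripts were also followed in comparisons that use none of the 6 libraries. Many of the 41 higher transcripts had few reads outside the head. In the 15 libraries other than head and carapace, 11 of the 41 and 10 of the 16 lower ones passed the count filter. The rest were tested here only because the head and carapace libraries were included. Few reads make a call less likely, so a low overlap says little about transcripts with few reads in the body parts compared. Calls remained possible for the rest, since 12 of the 16 were called in eggs against hemocytes. At least 10 reads were reached by 36 of the 41 over antenna and carcass and by 19 over eggs and hemocytes. Of the 16 lower ones, 15 and 14 had at least 10. Antenna against carcass called 157 transcripts higher (3.89%) and 106 lower (2.63%) in antenna. Of the 41 transcripts higher in head, 0 were among the 157 and 1 among the 106 (2.44% of the 41 and 0.943% of the 106). Of the 16 lower in head, 4 were among the 157 (25.0% of the 16 and 2.55% of the 157). Eggs against hemocytes called 186 higher (4.61%) and 773 lower (19.2%) in eggs. Of the 16, 12 were among the 773 (75% of the 16 and 1.55% of the 773), with a median log2 fold change of -3.66, against -0.07 for all tested transcripts. Of the 41, 5 were among the 773 (12.2% of the 41 and 0.647% of the 773), with a median of -2.43.

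Head was also set against body parts other than carapace in the same fit, and these comparisons share the head libraries. Against carcass, the head was higher in 18 (0.446%) and lower in 1 transcript (0.0248%), and the 41 had a median log2 fold change of 5.11, with 17 called higher. Against antenna, it was higher in 32 (0.793%) and lower in 17 (0.421%), and the 41 had a median of 6.03, with 30 called higher. The 16 transcripts lower than carapace had medians of 0.28 against carcass and -0.91 against antenna, with 0 and 1 called lower. Antenna against carapace shares the carapace libraries by which the 16 were chosen, so a negative value there is no separate result. That comparison called 56 transcripts higher (1.39%) and 34 lower (0.843%) in antenna, and gave the 16 a median of -2.98, with 9 called lower, and the 41 a median of 1.08, with 0 called higher.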

How the data were processed

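The deposited table gives, for each of 21 libraries (7 body parts in each of 3 barcoded pools), the read count of 33957 transcript models on 572 contigs, their length in bases (another value, as deposited) and an RPKM value. SAMtools and DESeq2 are named in the submitters' processing notes. The sources used here give no aligner, genome build or annotation. The deposited counts are whole reads and were used unchanged. The RPKM values deposited by the authors divide by the reads of the whole pool (926451, 988239 and 2424632), not of the library, and were not used.

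In R 4.3.3, edgeR 4.0.16 filtered transcripts (filterByExpr, minimum count 10), scaled the libraries (TMM; 1.33, 0.237 and 0.454 in the heads and 0.741, 1.07 and 0.661 in the carapaces of replicates 3, 4 and 7) and fitted 1 mean per body part to all 21 libraries by quasi-likelihood (common dispersion 0.29, prior degrees of freedom 9.9). The fit shares its spread over all body parts. Head minus carapace was tested two-sided with Benjamini-Hochberg adjustment over 4035 transcripts at 0.05. The tested transcripts held 89.5% to 96.8% of the reads of the 6 libraries. A prior count of 2 was added for log2 CPM. When head or carapace libraries of a replicate were left out, the same 4035 transcripts were tested unless a rerun of the filter is stated. The filter was rerun in the fits without gut (3951 transcripts), without the carcass of replicate 3 (4529) and with the 6 libraries alone (1525). The steps were tested on simulated data. Alternatives used DESeq2 1.42.0 and limma 3.58.1.

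The pool number pairs head and carapace, per the labels. Deviations from the body part means correlated across transcripts at -0.09, 0.02 and 0.30 between head and carapace of pools 3, 4 and 7, and the block was an alternative. Transcripts named by identifier or length followed a rule: the 2 largest log2 fold changes in each direction among calls that moved the same way in all replicates, with and without the head of replicate 3. At most 2 identifiers per direction are printed, and other transcripts given by length were chosen after their values were seen. The members and lists were chosen with earlier results of these data known. The split by the head of replicate 3, and the shares without the carcass of replicate 3 or outside the 77 transcripts, were chosen after the data were seen.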

Additional observations from a re-analysis of the deposited data

Results flagged for a closer look

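In 3 libraries outside the comparison, the whole interval of the share of reads on the 41 transcripts higher in head lay above the highest upper bound of the carapace libraries, 0.124%. The share was 1.12% in the carcass of replicate 3 (95% Clopper-Pearson interval 1.08 to 1.16, counting error only), 0.382% in the gut of replicate 3 (0.318 to 0.456) and 0.265% in the hemocytes of replicate 3 (0.226 to 0.310). The hemocytes and eggs of replicate 4 had 0.135% and 0.129%, with intervals that reach below that bound (0.113 to 0.159 and 0.112 to 0.148). In the carcass, 1.07% of the reads were on the 24 transcripts whose level in the head of replicate 3 was low, and in the gut and hemocytes 0.338% and 0.187% were on the other 17. The model of 5854 bases alone had 75 of the 123 reads on the 41 in that gut library, and 50 of the 159 in that hemocyte library. In the carcasses of replicates 4 and 7 the 41 took 0.0627% and 0.0708%.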

How the results depend on the processing

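Numbers of calls varied with the libraries and the model, and the cause was not tested except where fewer transcripts or libraries entered. No called transcript changed direction in an alternative that tested it. All 57 were tested in most alternatives, 33 with the 6 libraries alone, 35 with the stricter filter and 54 with 5 libraries. With all libraries, 41 transcripts were higher and 16 lower in head. Leaving out 1 head or carapace library gave 6 to 77 higher and 1 to 9 lower, and leaving out head and carapace of 1 replicate gave 4 to 59 higher and 0 to 2 lower. Where 0 were lower (edgeR, without replicate 4 or 7), 215 and 251 were lower at an unadjusted p under 0.05. The replicate block, pairing by pool, gave 50 higher and 56 lower, and 43 and 103 with the 6 libraries alone. The 6 libraries without the block gave 15 and 8. Library size alone gave 44 lower, DESeq2 82, limma voom 19 higher, and voom with quality weights 72 higher and 59 lower. No filter gave 156 and 59, and a stricter filter 40 lower. Chosen after the data were seen, rerunning the filter without the head of replicate 3 gave 99 and 6 over 4830 transcripts. The filter was also rerun without the carcass of replicate 3, which gave 69 and 22 over 4529 transcripts. With the 5 head and carapace libraries other than the head of replicate 3, it was rerun too and gave 136 and 39 over 2014.

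The 6 transcripts that the rule for the largest calls selected kept their direction in all alternatives, with 45 values past the threshold no longer and 90 on the same side. The median difference of the 16 lower transcripts was -3.75 and -3.30 in replicates 4 and 7 with a prior count of 1, and -2.90, -2.32 and -2.45 in replicates 3, 4 and 7 with a prior count of 5. It was -2.63 and -3.76 in replicates 3 and 4 with library size alone. That scaling left 70 transcripts with head above and no overlap, and 32 over 1 log2 unit in all pools. The sets called without the head of replicate 3 took 75.9% and 48.8% in the heads of replicates 4 and 7, and 0.520%, 0.265% and 0.0895% in the carapaces, where higher. Where lower, they took 0.0308% in the head of replicate 3, and 0.222%, 0.217% and 0.200% in the carapaces. The carapace means of the sets from other body parts were 0.895% (carcass), 9.37% (hemocytes) and 6.97% (eggs) with RLE factors, and 0.793% (eggs) above a log2 fold change of 2. The carcass set without the carcass of replicate 3 took 1.19% in head and 0.820% in carapace. At the common depth, 4952.1, 6931.6 and 8960.6 transcripts were detected in the heads of replicates 4 and 7 and the carapace of replicate 4. Outside the 77 transcripts, the antenna set took on average 22.8% in head. At these depths the lower transcripts had a median of 6 reads over the 3 heads, so their fold changes carry a large counting error.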
